A study of Mus musculus with 12 samples.

Results

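The genes described here are 9 growth factors and receptors of blood vessel growth, namely *Vegfa*, *Vegfc*, *Pgf*, *Flt1*, *Pdgfa*, *Pdgfb*, *Pdgfra*, *Pdgfrb* and *Angpt1*. They were chosen by symbol from the 770 genes of the nCounter PanCancer Pathways panel for mouse, where each transcript is counted by a color-coded probe pair with no amplification step. All 9 were measured in all 12 samples, and none was at the lowest value of a sample. *RBS* lesions are tumor-like growths in the eyes of *Rax-creERT2::Ctnnb1(ex3)Fl/+SmoM2Fl/+* embryos, in which tamoxifen at E8.5 switches on a stable beta-catenin and an active Smo in *Rax*-positive retinal progenitors, and 5 were taken at E18.5. Control eyes (*n* = 4, E18.5) came from *Ctnnb1(ex3)Fl/+SmoM2Fl/+* embryos, so both eye groups carried both floxed alleles and the controls lacked the Cre driver. Whether control embryos were exposed to tamoxifen is not in the labels. Shh-MBs (*n* = 3) were hindbrain tumors of 14-day-old *hGFAP-cre::SmoM2Fl/+* mice, where the human *GFAP* promoter drives Cre in neural progenitors, and tissue, age and genotype all set them apart from the eyes. Each sample was 1 eye, lesion or tumor of a separate animal, so *p*-values measure the spread between animals, and the sex is not in the labels.

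VEGF ligands bind receptor tyrosine kinases on endothelial cells, where KDR carries most of the growth signal and FLT1 holds ligand away from it. PDGF-B from endothelial cells recruits pericytes through PDGFRB, while PDGF-A acts through PDGFRA on glial precursors and mesenchyme. In the developing retina, neurons make PDGF-A for incoming astrocytes with PDGFRA, and these astrocytes in turn provide VEGF-A along the path of the vessels, whereas angiopoietin 1 steadies vessels through the receptor TEK.

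Values are normalized signal on a linear scale, tests used limma on log2(signal + 1) of all 770 genes, and a gene was called at an adjusted *p* under 0.05. Tests compared samples for each gene and not genes with each other, because probes differ in efficiency, and in the summed signals of marker lists each gene counts by the signal of its own probe. *RBS* lesions had between 335348 and 638154 counts above background, control eyes between 590044 and 716959, and Shh-MBs between 541209 and 707011. In bulk tissue, fewer cells of a type and less RNA per cell cannot be told apart. None of 22 listed retina, lens and surface epithelium markers is among the panel's genes, so the eye samples could not be checked against them. Of 13 listed granule cell precursor genes 7 were measured, and their summed signal was between 14549 and 17034 in Shh-MBs, between 5133 and 5975 in *RBS* lesions and between 15295 and 19319 in control eyes. In control eyes most of that sum was *Ccnd1*, with a mean of 13870, and the other 6 were higher in Shh-MBs than in control eyes.

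The PDGF ligands *Pdgfa* and *Pdgfb* separated *RBS* lesions from control eyes, while *Vegfa*, *Vegfc* and *Pgf* did not pass the test. *Pdgfa* was 1.67-fold and *Pdgfb* 1.93-fold higher in *RBS* lesions, and in both genes every lesion lay above every control eye. These were 2 of the 9 genes, both higher, while 51.2% of all 770 genes were called in either direction, 33.0% as higher and 18.2% as lower in *RBS* lesions, and in 43.4% the groups did not overlap. The share of the 9 genes called was thus below that of the panel.

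Against Shh-MBs, *RBS* lesions were higher in *Vegfa*, *Vegfc*, *Flt1*, *Pdgfb* and *Pdgfrb* and lower in *Pdgfa* and *Pdgfra*. This made 7 of 9 called, where the panel had 60.8% in either direction, 48.1% higher and 12.7% lower. Groups did not overlap in 6 of the 9, and in 59.9% of all genes. Shh-MBs compared with control eyes had 6 of 9 called, with *Pgf*, *Pdgfa* and *Pdgfra* higher and *Vegfa*, *Vegfc* and *Pdgfrb* lower. The panel had 41.0% called there, 9.61% as higher and 31.4% as lower, and groups did not overlap in 48.2% of genes against 8 of these 9. The 3 comparisons share samples, so each adds its own values but they are not independent.

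Scaling mattered most for comparisons with Shh-MBs. With each sample centred on its median, all log2 differences moved by -0.18 for *RBS* lesions against control eyes, by -0.85 for *RBS* lesions against Shh-MBs and by 0.67 for Shh-MBs against control eyes. Among called genes of the panel, the percentage that was higher went from 64.5 to 50 in the first comparison, from 79.1 to 36.2 in the second and from 23.4 to 69.1 in the last. *Vegfa*, *Pdgfa*, *Pdgfra* and *Pdgfrb* kept their direction and their call in both comparisons with Shh-MBs under this centring and under quantile normalization, and so did *Pdgfb* against *RBS* lesions. Of the 9 genes, 5 higher and 2 lower in *RBS* lesions than in Shh-MBs became 3 higher and 5 lower under either rescaling, and 3 higher and 3 lower in Shh-MBs than in control eyes became 4 higher and 2 lower.

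**Figure D1:**
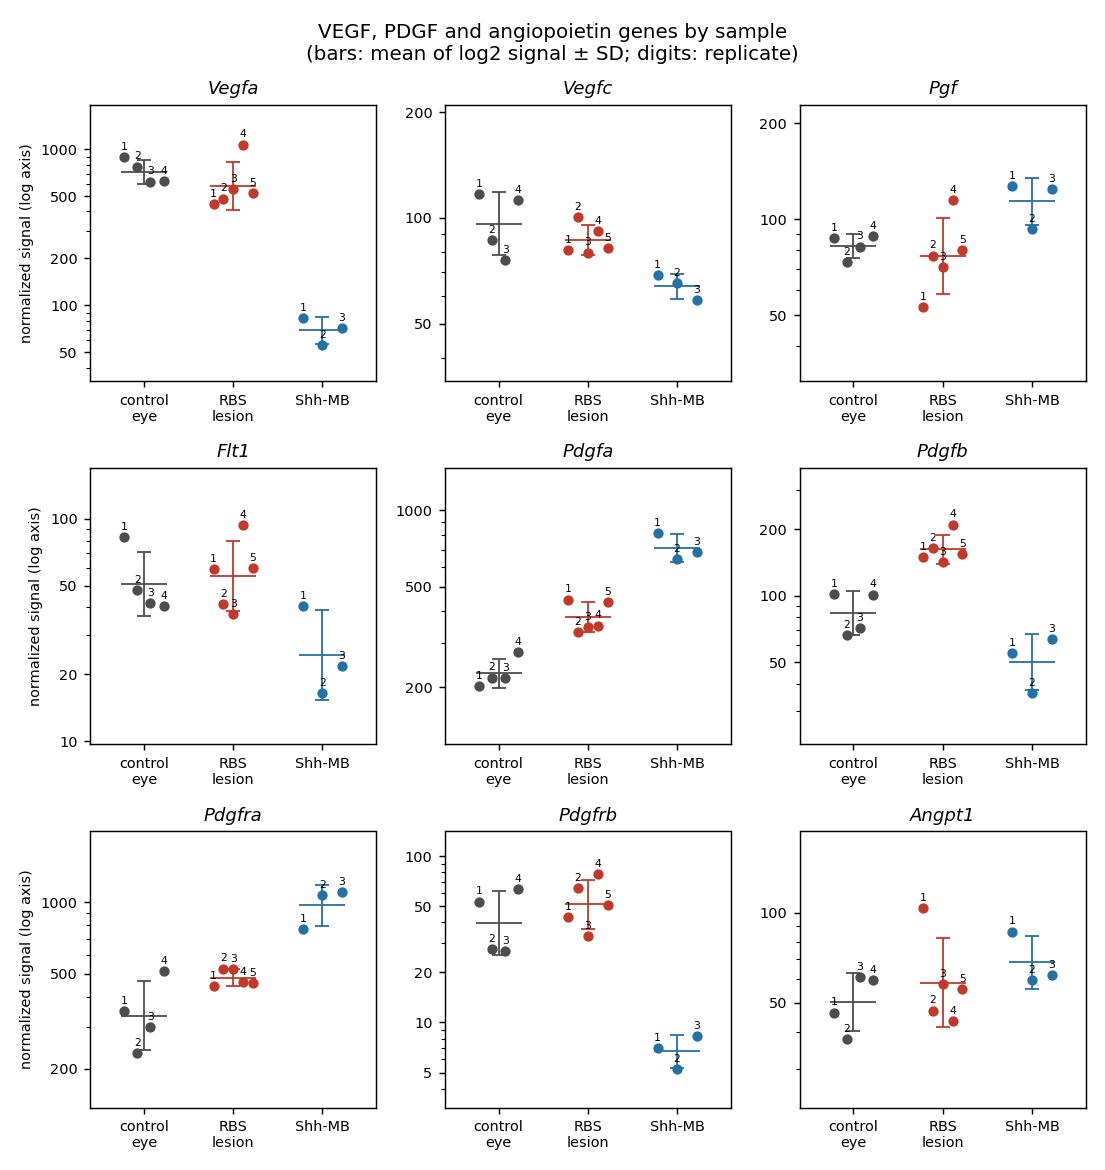
Normalized signal (log axis) of the 9 genes in each sample of control eyes, *RBS* lesions and Shh-MBs, where points are samples with their replicate number and bars are the mean of log2 signal ± SD. *Vegfa* and *Pdgfrb* lay lowest in all 3 Shh-MBs, *Pdgfa* stepped up from control eyes over *RBS* lesions to Shh-MBs, and *Pdgfb* was highest in *RBS* lesions.

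The stretches around the RefSeq transcription starts are shown for *Vegfa*, which of the 9 had the widest range between group means, and for *Pdgfa* and *Pdgfra*, the ligand and receptor whose profiles over the samples were closest among the 9. RefSeq windows (GRCm38.p6, 250 bases before to 50 after a start) were held for 6 of the 9 genes, and where a gene had several, the most upstream is given, 5′ to 3′ on the gene's strand. Capitals mark the GC box GGGCGG on either strand, the core to which Sp1-type factors bind. It occurs in 35.7% of all 32851 windows. The window of *Vegfa* lies at chr17:46032328-46032627 on the minus strand, that of *Pdgfa* at chr5:138994895-138995194 on the minus strand and that of *Pdgfra* at chr5:75152001-75152300 on the plus strand.
Vegfa: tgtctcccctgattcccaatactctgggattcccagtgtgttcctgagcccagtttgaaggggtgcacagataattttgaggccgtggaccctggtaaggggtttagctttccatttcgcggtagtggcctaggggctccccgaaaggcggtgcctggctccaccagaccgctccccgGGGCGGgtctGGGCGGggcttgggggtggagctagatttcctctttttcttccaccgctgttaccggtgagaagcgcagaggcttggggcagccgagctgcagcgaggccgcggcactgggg
Pdgfa: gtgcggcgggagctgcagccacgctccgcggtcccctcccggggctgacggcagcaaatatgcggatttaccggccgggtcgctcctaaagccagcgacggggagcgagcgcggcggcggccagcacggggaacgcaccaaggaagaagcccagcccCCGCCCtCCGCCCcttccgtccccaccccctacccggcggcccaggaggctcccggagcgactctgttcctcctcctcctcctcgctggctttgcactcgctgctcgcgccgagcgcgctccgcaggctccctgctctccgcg
Pdgfra: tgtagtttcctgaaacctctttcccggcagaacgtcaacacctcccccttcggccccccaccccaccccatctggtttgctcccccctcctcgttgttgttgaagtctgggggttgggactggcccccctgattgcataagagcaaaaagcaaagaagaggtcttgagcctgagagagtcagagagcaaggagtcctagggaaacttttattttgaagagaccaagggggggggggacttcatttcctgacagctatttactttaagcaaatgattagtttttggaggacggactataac
*Vegfa* and *Pdgfa* each had 2 GC boxes and *Pdgfra* had 0, with a GC content of 62.0%, 73.3% and 51.0%. The hypoxia response core, ACGTG or GCGTG on either strand, was found 1 time in the *Pdgfa* window and 0 times in the other 2 windows shown, and 43.8% of all windows hold it. The second window of *Vegfa* holds it 2 times, and the *Flt1* window and 1 of the 2 *Pgf* windows hold it 1 time each. Neither the TCF/LEF core CTTTGA (16.0% of windows) nor the Gli site TGGGTGGTC (0.253% of windows) occurred in these 3 windows on either strand. Such matches describe the letters of the window and not binding.

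*Vegfa* encodes the main growth factor for endothelial cells and is induced by low oxygen. Its signal was 889, 776, 621 and 624 in the control eyes, 449, 483, 559, 1072 and 522 in *RBS* lesions 1 to 5, and 83.1, 55.8 and 71.9 in the Shh-MBs. In *Vegfa*, 4 of 5 lesions lay below every control eye, RBS 4 lay above all of them, and the tumors lay far below both eye groups.
With means of 617 ± 258 (SD, *n* = 5) and 727 ± 130 (SD, *n* = 4), the log2 difference between *RBS* lesions and control eyes was -0.30 (standard error 0.255, 95% interval -0.88 to 0.28, adjusted *p* = 0.375, limma). RBS 4 decided this. Without it the difference was -0.52 (adjusted *p* = 0.0186, limma), a call of lower *Vegfa* in *RBS* lesions.
In Shh-MBs the mean was 70.3 ± 13.7 (SD, *n* = 3), which was 8.78-fold lower than in *RBS* lesions (log2 difference 3.06, standard error 0.294, adjusted *p* = 5.1e-05, limma) and 10.3-fold lower than in control eyes (log2 difference -3.35, standard error 0.194, adjusted *p* = 2.5e-05, limma). Leaving out any 1 sample kept the log2 difference of *RBS* lesions against Shh-MBs between 2.84 and 3.18.

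Of 8 measured genes of the hypoxia and Vhl-Hif list, *Bnip3* and *Ddit4* were the ones in which RBS 4 stood farthest from the other lesions, and they were chosen after their values were seen. *Bnip3*, a mitochondrial target of hypoxia-inducible factors, had a signal of 1955 in RBS 4 and between 660.2 and 773 in the other 4 lesions, against 1485 to 2414 in control eyes. *Ddit4*, a stress-induced inhibitor of mTORC1, was 363 in RBS 4, between 135 and 174 in the other 4 lesions and between 220.3 and 302 in control eyes. *Vegfa*, *Bnip3* and *Ddit4* thus had the same order, with 4 lesions below all control eyes and RBS 4 above at least 3 of them. That order follows in part from how *Bnip3* and *Ddit4* were chosen. RBS 4 also had the lowest summed signal of mesenchyme genes among the eye samples (20769) and the highest of neuron genes among the lesions (3684). What set RBS 4 apart was not tested. In *Arnt2*, *Vhl*, *Rbx1* and *Crebbp*, RBS 4 lay within the range of the other lesions, with signals of 1148, 135, 896 and 1031. It was the highest lesion in *Ep300* (699 against 587 to 638) and in *Epo*, where all lesions were at 4.87 or less, near the lowest values.
Of 8 measured genes of the hypoxia and Vhl-Hif list, 5 were higher in *RBS* lesions than in controls (*Arnt2* 1.67, *Vhl* 0.85, *Rbx1* 0.64, *Ep300* 0.40 and *Crebbp* 0.36 on the log2 scale) and 2 were lower (*Bnip3* -1.03 and *Epo* -1.33). The median of the list was 0.38 and that of all genes 0.17, and 33.0% of all genes were higher and 18.2% lower. *Arnt2* encodes a partner of hypoxia-inducible factors, while *Vhl* and *Rbx1* encode parts of the ligase that removes them. Against Shh-MBs, 5 of the 8 were higher in *RBS* lesions and 0 lower, with *Bnip3* at 1.85, where 48.1% of all genes were higher and 12.7% lower. Shh-MBs had 0 higher and 2 lower than control eyes, *Bnip3* at -2.87 and *Ep300* at -0.79, where 9.61% of all genes were higher and 31.4% lower.

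*Vegfc* encodes the main growth factor of lymphatic vessels. Its signal was 117, 86.5, 75.8 and 113 in control eyes, 80.9, 100.5, 79.7, 91.7 and 81.9 in *RBS* lesions, and 68.6, 65.2 and 58.3 in Shh-MBs. The eye groups overlapped throughout, and the tumors were below every eye sample on the deposited scale.
*RBS* lesions and control eyes differed by -0.15 on the log2 scale (95% interval -0.49 to 0.18, adjusted *p* = 0.432, limma). *RBS* lesions were higher than Shh-MBs by 0.43 (standard error 0.117, adjusted *p* = 0.0117, limma), and the sign depended on the scaling, since centring on the median gave -0.41 (adjusted *p* = 0.0294, limma) and quantile normalization -0.47 (adjusted *p* = 0.0205, limma). Shh-MBs were lower than control eyes by -0.59 (adjusted *p* = 0.0390, limma), which turned to 0.08 with median centring. This last call was lost without Shh-MB 1, 2 or 3 and without control 1, 2 or 4, with adjusted *p*-values up to 0.115 (limma).

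*Pgf*, placental growth factor, binds FLT1 and not KDR. Control eyes had 87.4, 73.3, 82.1 and 88.6, *RBS* lesions 53.0, 77.0, 70.9, 114.6 and 80.1, and Shh-MBs 127, 93.3 and 124. RBS 1 was the lowest and RBS 4 the highest of the eye samples, and RBS 4 was the only lesion within the range of the tumors.
The difference between *RBS* lesions and control eyes was -0.11 (95% interval -0.55 to 0.33, adjusted *p* = 0.673, limma). *RBS* lesions against Shh-MBs gave -0.56 (adjusted *p* = 0.0715, limma), which was called at -1.41 after median centring (adjusted *p* = 0.000837, limma) and at -0.71 without RBS 4 (adjusted *p* = 0.0153, limma). Shh-MBs were higher than control eyes by 0.46 (standard error 0.144, adjusted *p* = 0.0436, limma), with a log2 difference of 1.12 after centring. On the deposited scale this call was lost in 6 of 7 fits that left out 1 sample, all but that without Shh-MB 2, with values from 0.38 to 0.60.

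*Flt1* encodes VEGFR1, a receptor with high affinity and weak kinase activity. Its signal was 82.7, 48.0, 41.8 and 40.7 in control eyes, 59.5, 41.4, 37.4, 94.1 and 59.9 in *RBS* lesions and 40.6, 16.5 and 21.8 in Shh-MBs. Control 1, RBS 4 and Shh-MB 1 were each well above the rest of their group. These same 3 samples also had the highest *Vegfa* of their groups.
The log2 difference between *RBS* lesions and control eyes was 0.12 (95% interval -0.57 to 0.80, adjusted *p* = 0.771, limma), and its sign changed to -0.06 with median centring and to -0.02 with quantile normalization. Against Shh-MBs, *RBS* lesions were higher by 1.15 (standard error 0.367, adjusted *p* = 0.0259, limma) although the groups overlapped. That call ended with median centring (0.30), with quantile normalization (-0.13), when samples were scaled to total signal after removal of the 3 top genes (0.77, adjusted *p* = 0.100, limma), in the *t* test with either adjustment, in the exact permutation test (*p* = 0.0536), and without Shh-MB 2, Shh-MB 3, RBS 1 or RBS 5, where the values were between 0.87 and 1.12. Shh-MBs against control eyes gave -1.03 (adjusted *p* = 0.0664, limma), with all 3 tumors below all 4 eyes by a margin of 40.6 to 40.7. Without Shh-MB 1 it was called at -1.38 (adjusted *p* = 0.0192, limma), and it was also called with low genes left out, with all 12 samples in 1 fit, with trend and robust settings and with a replicate block, but turned to 0.13 with quantile normalization.

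*Kdr*, which encodes VEGFR2, differed far more than *Flt1*. *Kdr* marks endothelium and is also made by retinal progenitors. Its signal was 2012, 2115, 1641 and 1686 in control eyes, 573, 727, 820.1, 639 and 562 in *RBS* lesions, and 156, 77.3 and 98.2 in Shh-MBs, so that the 3 groups did not overlap.
*Kdr* was 2.81-fold lower in *RBS* lesions than in controls (log2 difference -1.49, standard error 0.142, adjusted *p* = 4.3e-05, limma) and 6.01-fold higher than in Shh-MBs (log2 difference 2.62, adjusted *p* = 3.8e-05, limma). Its fold between Shh-MBs and control eyes was 16.9, lower in the tumors (log2 difference -4.12, adjusted *p* = 2.8e-05, limma).
*Vegfb*, a VEGF ligand of FLT1, had a signal of 777, 762, 648 and 764 in control eyes, 457, 549, 597, 653 and 608 in *RBS* lesions and 555, 552 and 633 in Shh-MBs. It was lower in *RBS* lesions than in controls by -0.37 (adjusted *p* = 0.0281, limma), a call lost without RBS 2 and without control 1, 2 or 4. *Figf*, the older name of *Vegfd*, was between 12.3 and 30.3 in control eyes and between 26.0 and 47.1 in *RBS* lesions, and higher by 0.79 (adjusted *p* = 0.0306, limma). It kept its call in 3 of 9 fits with 1 sample left out and lost it without RBS 1, 3 or 5 and without control 1, 2 or 3. The *Figf* call also ended with median centring (0.61, adjusted *p* = 0.0867, limma), with quantile normalization (0.53, adjusted *p* = 0.0821, limma), with all 12 samples in 1 fit (adjusted *p* = 0.0719, limma), with a replicate block (0.68, adjusted *p* = 0.130, limma) and in the *t* test with either adjustment. Both groups overlapped in these 2 genes. Against Shh-MBs, *Figf* was higher in *RBS* lesions by 2.72 with as few as 2.57 counts above background in a tumor, and *Vegfb* differed by -0.03 (adjusted *p* = 0.880, limma), or by -0.87 with median centring (adjusted *p* = 0.00189, limma).

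*Pdgfa* encodes the ligand of PDGFRA that neurons supply to glial precursors. Signals were 202, 218, 218 and 275 in control eyes, 444, 331, 346, 351 and 433 in *RBS* lesions and 815, 640.3 and 686 in Shh-MBs. The 3 groups formed 3 separate levels, with control eyes lowest and Shh-MBs highest.
With means of 381 ± 53.0 (SD, *n* = 5) and 228 ± 32.0 (SD, *n* = 4), *RBS* lesions were higher than control eyes by 0.73 on the log2 scale (standard error 0.133, 95% interval 0.43 to 1.03, adjusted *p* = 0.0015, limma). The exact two-sided permutation test gave *p* = 0.00794, the smallest that 5 against 4 samples allow. Each fit without 1 sample called the gene, with values from 0.68 to 0.83, and median centring gave 0.55 (adjusted *p* = 0.00689, limma).
Shh-MBs had 714 ± 90.8 (SD, *n* = 3), 1.87-fold more than *RBS* lesions (log2 difference of *RBS* lesions against Shh-MBs -0.91, adjusted *p* = 0.00079, limma) and 3.13-fold more than control eyes (log2 difference 1.64, adjusted *p* = 0.000181, limma).

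*Pdgfb* encodes the ligand that endothelial cells use to attract pericytes. Its signal was 101, 66.2, 71.5 and 101 in control eyes, 149.8, 164, 142, 209.8 and 154 in *RBS* lesions, and 55.1, 36.1 and 63.4 in Shh-MBs. *RBS* lesions lay above all other samples, with RBS 4 highest, and Shh-MBs lay lowest, in an order unlike that of *Pdgfa*.
Lesions averaged 164 ± 26.8 (SD, *n* = 5) and controls 85.1 ± 18.8 (SD, *n* = 4), so that the log2 difference was 0.95 (standard error 0.172, 95% interval 0.56 to 1.34, adjusted *p* = 0.00149, limma; exact permutation *p* = 0.00794). Values between 0.84 and 1.04 were found when any 1 sample was left out, and 0.77 with median centring. *RBS* lesions were 3.18-fold higher than Shh-MBs (log2 difference 1.68, standard error 0.206, adjusted *p* = 0.000192, limma), or 0.83 on the log2 scale with median centring. Shh-MBs against control eyes gave -0.72 (adjusted *p* = 0.0606, limma), which was called with low genes left out, with all 12 samples in 1 fit and with trend and robust settings, and which quantile normalization turned to 0.11.

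*Pdgfra* encodes the receptor found on oligodendrocyte precursors, astrocyte precursors and mesenchyme. Control eyes had 349, 233.5, 299 and 514, *RBS* lesions 444, 527, 526, 460.5 and 459, and Shh-MBs 769.5, 1075 and 1101. Control 4 lay within the range of the lesions and the other 3 control eyes lay below it, while all tumors were above all eyes.
*RBS* lesions against control eyes gave 0.53 (standard error 0.203, 95% interval 0.07 to 0.99, adjusted *p* = 0.0565, limma), which did not pass. It passed with a pseudocount of 5 (adjusted *p* = 0.0487, limma), with low genes left out (adjusted *p* = 0.0372, limma) and with trend and robust settings (adjusted *p* = 0.0280, limma), and the exact permutation test of this gene alone gave *p* = 0.0476 (two-sided). It did not pass with median centring (0.35, adjusted *p* = 0.153, limma), with quantile normalization (0.27, adjusted *p* = 0.318, limma) or in the other settings run on all samples of both groups. Without control 4 the difference was 0.73 (adjusted *p* = 0.00333, limma) and passed. In Shh-MBs, *Pdgfra* was 2.03-fold higher than in *RBS* lesions (log2 difference of *RBS* lesions against Shh-MBs -1.01, standard error 0.146, adjusted *p* = 0.000466, limma) and 2.82-fold higher than in control eyes (log2 difference 1.53, adjusted *p* = 0.00505, limma).

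*Pdgfrb* encodes the pericyte receptor, which mesenchymal cells also carry. Its signal was 53.3, 27.7, 26.9 and 63.6 in control eyes, 43.1, 64.1, 33.0, 78.4 and 50.8 in *RBS* lesions, and 6.98, 5.22 and 8.27 in Shh-MBs. The eye groups overlapped, and the tumors were below all eyes.
*RBS* lesions and control eyes differed by 0.36 (95% interval -0.39 to 1.11, adjusted *p* = 0.409, limma). *RBS* lesions were 7.89-fold higher than Shh-MBs (log2 difference 2.77, standard error 0.282, adjusted *p* = 6.9e-05, limma), and control eyes were 6.29-fold higher (log2 difference of Shh-MBs against control eyes -2.41, adjusted *p* = 0.00172, limma). With quantile normalization these log2 differences were 1.37 (adjusted *p* = 0.0135, limma) and -1.27 (adjusted *p* = 0.0292, limma). Signals in the tumors rested on 5.57 to 9.75 counts above background. With values under 20 set to 20, the difference of Shh-MBs against control eyes was -0.996 (adjusted *p* = 0.0872, limma).

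*Angpt1* encodes the angiopoietin that activates TEK and is made largely by mural and mesenchymal cells. Control eyes had 46.3, 37.9, 60.9 and 59.5, *RBS* lesions 104, 47.1, 57.7, 43.4 and 55.4, and Shh-MBs 86.5, 59.6 and 61.7. RBS 1, the shallowest sample, was the highest of all 12, and the groups overlapped.
No comparison called *Angpt1* on the deposited scale. The log2 difference was 0.21 for *RBS* lesions against control eyes (95% interval -0.37 to 0.80, adjusted *p* = 0.530, limma), -0.22 for *RBS* lesions against Shh-MBs (adjusted *p* = 0.536, limma) and 0.44 for Shh-MBs against control eyes (adjusted *p* = 0.164, limma). With median centring the second became -1.07 (adjusted *p* = 0.00676, limma) and the last 1.10 (adjusted *p* = 0.00238, limma). *Angpt2*, which can block angiopoietin 1 and is released by sprouting endothelium, was between 96.7 and 125 in control eyes, between 72.7 and 196 in *RBS* lesions and between 35.2 and 38.3 in Shh-MBs. It differed by 0.22 between *RBS* lesions and control eyes (adjusted *p* = 0.533, limma) and was 3.75-fold higher in *RBS* lesions than in Shh-MBs.

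**Figure D2:**
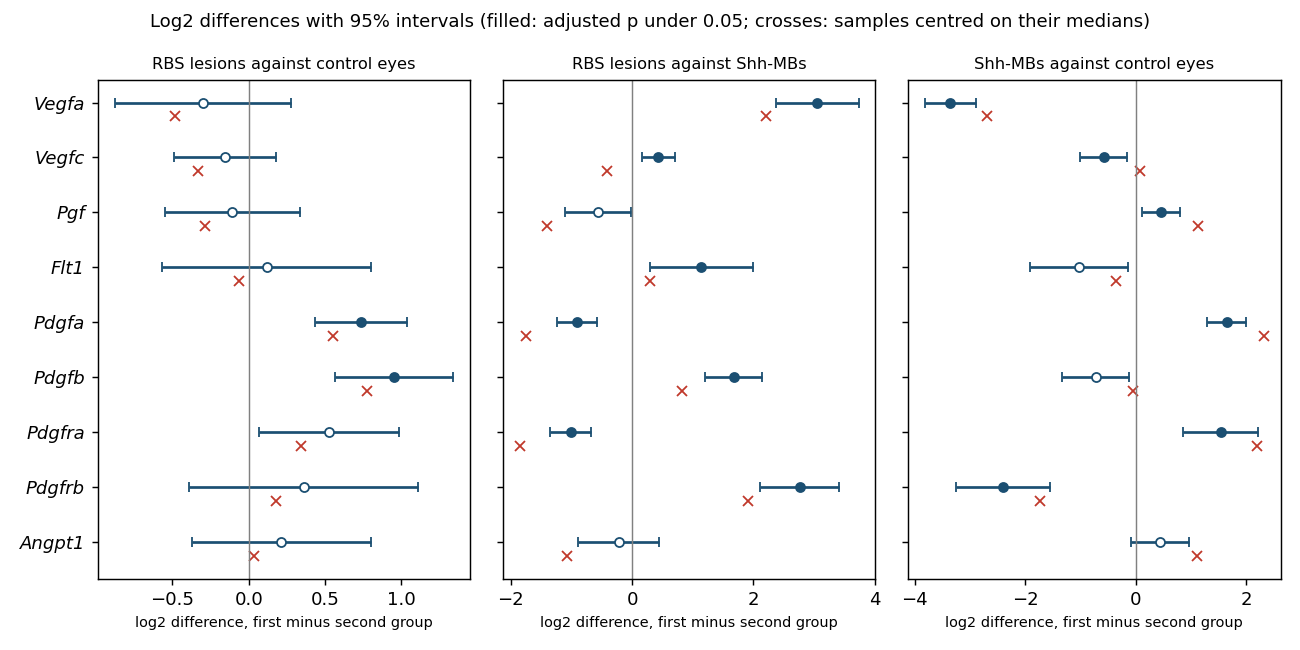
Log2 differences of the 9 genes in the 3 comparisons (x axis, first minus second group; points with 95% intervals, filled at an adjusted *p* under 0.05), with crosses for the value after each sample was centred on its median. *Pdgfa* and *Pdgfb* are the filled points in the first panel at 0.73 and 0.95, and *Vegfa* has the largest differences in the other panels at 3.06 and -3.35.

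Ratios of 2 genes within a sample do not depend on a single scaling factor per sample, such as that of median centring, but they do change under quantile normalization. They describe shifts between groups and are not compared between gene pairs. The log2 ratio of *Pdgfra* to *Pdgfrb* had a mean of 3.07 with an SD of 0.31 in the 4 control eyes, 3.23 with an SD of 0.52 in the 5 *RBS* lesions and 7.18 with an SD of 0.46 in the 3 Shh-MBs, so both eye groups overlapped and the tumors stood apart. In the tumors *Pdgfrb* rested on 5.57 to 9.75 counts above background, so the size of that shift is not exact. For *Pdgfa* to *Pdgfb* it was (mean ± SD) 1.44 ± 0.32 in control eyes, 1.22 ± 0.34 in *RBS* lesions and 3.82 ± 0.36 in Shh-MBs. The ratio of *Vegfa* to *Pgf* was 3.12 ± 0.30, 2.93 ± 0.25 and -0.71 ± 0.094 in the same order.
*Flt1* to *Kdr* was -5.18 ± 0.39 in control eyes, -3.57 ± 0.70 in *RBS* lesions and -2.11 ± 0.15 in Shh-MBs, and the 3 groups did not overlap. *Pdgfa* to *Pdgfra*, ligand to receptor, was -0.56 ± 0.36, -0.35 ± 0.30 and -0.45 ± 0.46, which overlapped in all groups. *Pdgfb* to *Pdgfrb*, another ligand and receptor, was 1.07 ± 0.33, 1.66 ± 0.30 and 2.90 ± 0.10. There the eye groups overlapped and the tumors lay higher, on the few *Pdgfrb* counts given above. Ratios of *Vegfa* to *Flt1* and of *Vegfa* to *Vegfc* were also taken and are not reported here. *Angpt1* to *Angpt2* was -1.15 ± 0.27 in control eyes, -1.14 ± 0.57 in *RBS* lesions and 0.91 ± 0.23 in Shh-MBs.

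The other PDGF ligands on the panel are *Pdgfc*, whose product acts on PDGFRA, and *Pdgfd*, whose product acts on PDGFRB. *Pdgfc* was 341, 317, 242.5 and 465 in control eyes, 304, 228, 258, 233 and 289.5 in *RBS* lesions, and 91.0, 65.2 and 66.8 in Shh-MBs. *RBS* lesions against control eyes gave -0.35 for *Pdgfc* (adjusted *p* = 0.149, limma), which median centring brought past the threshold at -0.53 (adjusted *p* = 0.0280, limma). Lesions were 3.53-fold higher than the tumors.
*Pdgfd* was 28.7, 27.7, 28.0 and 79.2 in control eyes, between 65.1 and 77.6 in *RBS* lesions 1 to 4 and 35.2 in RBS 5, and 20.4, 6.16 and 14.2 in Shh-MBs. Control 4 was above every lesion. The log2 difference of *RBS* lesions against control eyes was 0.74 (adjusted *p* = 0.118, limma) with it and 1.10 (adjusted *p* = 0.00611, limma) without it. Leaving out RBS 5 instead also brought it past the threshold, at 0.93 (adjusted *p* = 0.0480, limma).
Among the 6 other VEGF, PDGF and angiopoietin genes measured, 1 was higher and 2 were lower in *RBS* lesions than in controls, 5 were higher and 0 lower than in Shh-MBs, and Shh-MBs had 0 higher and 5 lower than control eyes. Of all genes, 33.0% were higher and 18.2% lower in the first comparison, 48.1% and 12.7% in the second, and 9.61% and 31.4% in the last.

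**Figure D3:**
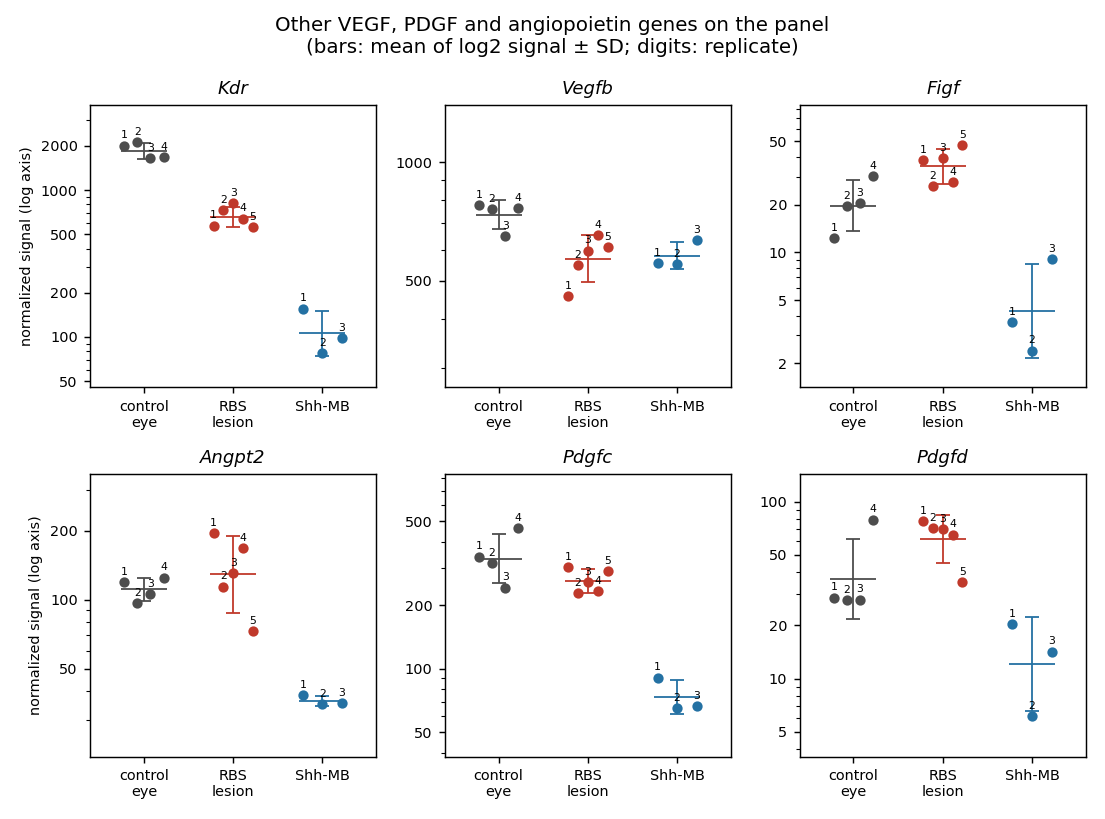
Normalized signal (log axis) of the 6 other VEGF, PDGF and angiopoietin genes in each sample, where points are samples with their replicate number and bars are the mean of log2 signal ± SD. *Kdr* forms 3 separate levels, highest in control eyes, and *Pdgfd* of control 4 lies at 79.2, above every *RBS* lesion.

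The root mean square deviation from the group mean on the log2 scale was smaller over the 9 genes than over all genes in 11 of the 12 samples, the exception being RBS 4 with 0.511 against 0.407. The value over all genes includes weak genes, down to the lowest value of a sample. Among genes with a group mean of at least 20, the median coefficient of variation was 13.3% in *RBS* lesions, 12.8% in control eyes and 13.0% in Shh-MBs. The median of the 9 genes was higher, at 28.4%, 21.5% and 19.5%. RBS 4 was above its group mean on the log2 scale in 6 of the 9 genes, by 0.88 in *Vegfa*, 0.75 in *Flt1*, 0.60 in *Pdgfrb* and 0.57 in *Pgf*. Control 1 and control 4 were above their group mean in 7 genes each, and control 2 and control 3 in 1 each. Control 4 was highest in *Pdgfra* (0.62), *Pdgfrb* (0.66) and *Pdgfa* (0.28), and control 1 in *Flt1* (0.69) and *Vegfa* (0.31).

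**Figure D4:**
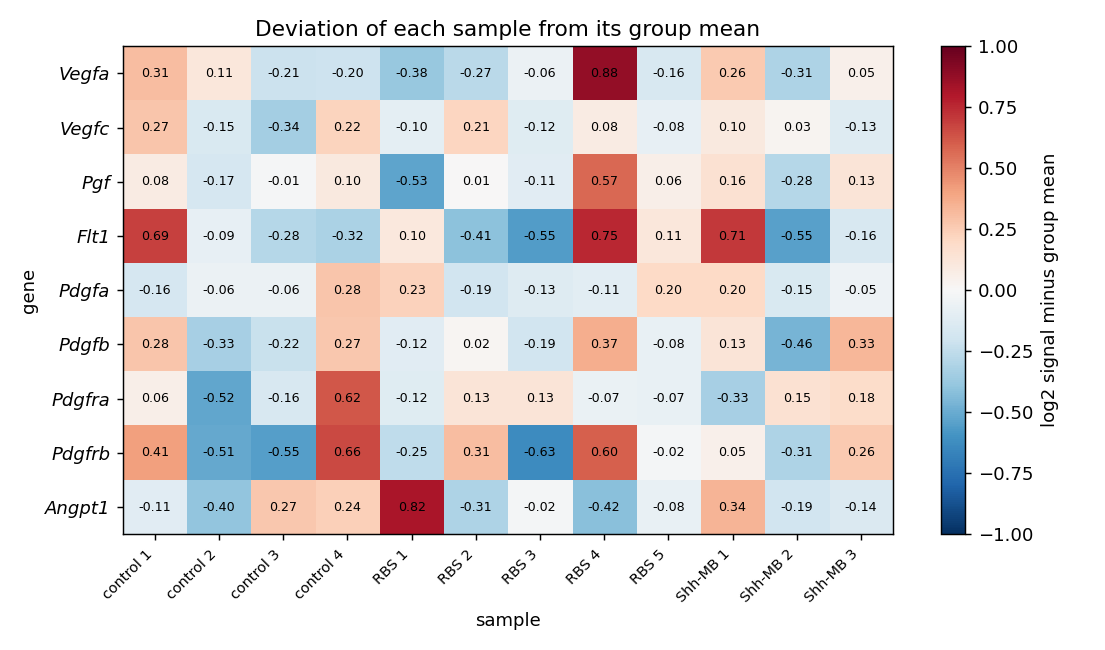
Log2 signal of each of the 9 genes (rows) minus the mean of the sample's own group, for the 12 samples (columns), with the color scale from -1 to 1. RBS 4 is red in *Vegfa* (0.88) and *Flt1* (0.75), RBS 1 in *Angpt1* (0.82), and control 4 in *Pdgfra* (0.62) and *Pdgfrb* (0.66).

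Signals of vessel and connective tissue markers were set beside those of these genes, without a test that links them. The summed signal of 5 endothelial genes on the panel was between 2005 and 2568 in control eyes, between 885 and 1246 in *RBS* lesions and between 306 and 383 in Shh-MBs. *Kdr* makes up most of this sum in the eyes. Of the 5, *Kdr* and *Dll4* (-1.29), a Notch ligand of vessel tips, were lower in *RBS* lesions than in controls and 0 were higher. The other 3, *Ets2* (0.33), *Nos3* (0.57) and *Sox17* (1.31), had positive differences that did not pass the test, so the median of the list was 0.33. Against Shh-MBs 3 were higher and 0 lower in *RBS* lesions, and Shh-MBs had 0 higher and 2 lower than control eyes. Of all genes, 33.0% were higher and 18.2% lower in the first of these comparisons, 48.1% and 12.7% in the second, and 9.61% and 31.4% in the last. Their part in the differences of *Vegfa*, *Flt1* and *Pdgfb* was not tested.
*Notch3*, the 1 mural gene on the panel, was between 22.7 and 52.2 in control eyes, between 65.4 and 88.0 in *RBS* lesions and at most 8.10 in Shh-MBs, with Shh-MB 2 at the lowest value of its sample. It was higher in *RBS* lesions than in controls by 1.27 (adjusted *p* = 0.00148, limma), while *Pdgfrb*, another pericyte gene, was not called there.
The summed signal of 10 mesenchyme genes was between 26255 and 58995 in control eyes, between 20769 and 38026 in *RBS* lesions and between 979 and 1306 in Shh-MBs. Control 4 had the highest sum of all samples and the highest *Pdgfra*, *Pdgfrb*, *Pdgfc* and *Pdgfd* of the control eyes. RBS 4 had the lowest sum of the eye samples and the highest *Pdgfrb*. *RBS* lesions had 1 of these 10 genes higher (*Tnc* 1.34) and 4 lower than control eyes, among them *Thbs1* (-0.96) and *Col1a2* (-0.91), and 9 higher and 0 lower than Shh-MBs. Shh-MBs had 0 higher and 8 lower than control eyes. The panel had 33.0% higher and 18.2% lower in *RBS* lesions than in controls, 48.1% and 12.7% against Shh-MBs, and 9.61% and 31.4% in Shh-MBs against control eyes. The part of these cells in the *Pdgfrb* and *Pdgfra* differences was not tested.

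For the lists that follow, the background over all 770 genes was 33.0% higher and 18.2% lower in *RBS* lesions than in controls, 48.1% and 12.7% against Shh-MBs, and 9.61% and 31.4% in Shh-MBs against control eyes. Genes of glia and neurons differed between *RBS* lesions and control eyes in the direction of *Pdgfa*. Both glial genes on the panel were higher in *RBS* lesions than in controls, *Id4* by 3.39 and *Sox9* by 0.52, and their summed signal was between 7572 and 9310.5 against 1073 to 1213. In Shh-MBs, where *Pdgfa* and *Pdgfra* were highest, that sum was between 476 and 915. Both were higher in *RBS* lesions than in Shh-MBs, and 1 of them was lower in Shh-MBs than in control eyes. Of 9 neuron genes, 7 were higher and 0 lower in *RBS* lesions than in controls, among them *Baiap3* (4.58), *Cacna1e* (4.32), *Grin2b* (3.21) and *Grin1* (2.30). *Baiap3* and *Cacna1e* had mean signals of 1.79 and 5.39 in control eyes, near the lowest values of these samples, so the sizes of their differences are not exact. Against Shh-MBs 4 were higher and 1 lower, and Shh-MBs had 5 higher and 1 lower than control eyes, so that the share higher than in Shh-MBs was near that of all genes. Of 11 blood and immune genes, 4 were higher in *RBS* lesions than in controls, with *Csf1r* at 1.08 and *Cd14* at 1.63 (mean signal 2.95 in control eyes), 5 were higher than in Shh-MBs, and Shh-MBs had 1 higher and 2 lower than control eyes. The shares of higher blood and immune genes in *RBS* lesions were thus near those of all genes. Of the 7 granule cell precursor genes, *RBS* lesions had 1 higher and 4 lower than control eyes and 0 higher and 5 lower than Shh-MBs, and Shh-MBs had 6 higher and 1 lower than control eyes. The part of these cell types in the *Pdgfa* and *Pdgfb* differences was not tested.

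Downstream of the VEGF and PDGF receptors, 51 genes of signal transducers were measured. In *RBS* lesions 30 were higher and 3 lower than in control eyes (median 0.40, all genes 0.17), where 33.0% of all genes were higher and 18.2% lower. Among them were *Shc3* at 2.49, *Pla2g4e* at 2.36, *Prkca* at 1.48 and *Stat3* at 1.29. *Shc3* encodes a neuronal adaptor of receptor kinases and *Prkca* a protein kinase C. *Shc1*, the widely expressed adaptor of the same family, was lower at -0.58. Against Shh-MBs, 29 were higher and 2 lower (median 0.61, all genes 0.53), where 48.1% of all genes were higher and 12.7% lower. Values were high in *Pla2g4e* (2.58), *Pik3r1* (2.30), *Prkca* (2.14) and *Shc3* (1.97). Shh-MBs had 3 higher and 10 lower than control eyes (median -0.10, all genes -0.22), where 9.61% of all genes were higher and 31.4% lower. *Pla2g4e* had a mean signal of 2.93 in control eyes and 2.62 in Shh-MBs, near the lowest values of these samples, so the size of its differences is not exact. The kinases and adaptors of this list serve many receptors.
Of 19 other ligands and matrix factors that promote or restrain vessel growth, 2 were higher and 6 lower in *RBS* lesions than in controls (median 0.06, all genes 0.17), where 33.0% of all genes were higher and 18.2% lower. The list includes the membrane-bound ligands *Dll4*, *Jag1* and *Efna1*, and *Dll4*, 1 of the 6, is also counted among the endothelial genes. *Thbs1*, another of the 6, and *Tnc*, 1 of the 2 higher, are also counted among the mesenchyme genes. *Col4a3*, a basement membrane collagen chain, was lower by -4.38 and *Thbs4*, a thrombospondin, by -2.61, while *Tnc* (1.34) and *Spp1* (1.33), both matrix proteins, were higher. The mean signal of *Col4a3* in *RBS* lesions was 7.26 with an SD of 8.86, near the lowest values, so the size of this difference is not exact. Against Shh-MBs 10 were higher and 1 lower (48.1% and 12.7% of all genes), with *Igf1* at 4.07, *Thbs1* at 3.90, *Tgfb3* at 2.37 and *Fgf1* at -2.36. The mean signal of *Igf1* was 3.75 and that of *Thbs1* 3.32 in Shh-MBs, so the sizes of these differences are not exact. Shh-MBs had 2 higher and 8 lower than control eyes (9.61% and 31.4% of all genes).

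Likeness of profiles was described by the root mean square difference of centred log2 values over the 12 samples, a measure that mostly reads the steps between the 3 groups. *Pdgfa* and *Pdgfra* were the closest of the 9 genes at 0.326, and *Vegfa* and *Pdgfra* the farthest apart at 2.01. *Vegfa* was most like *Notch1* (0.288), *Runx1t1* (0.305) and *Dll1* (0.307), where the median over genes was 1.36. *Pdgfa* was most like *Fut8* (0.249), *Gria3* (0.282) and *Pdgfra*, and *Pdgfra* most like *Myc* (0.299), *Fut8* (0.305) and *Shc2* (0.312). *Pdgfb* was close to *Fgfr1* (0.225) and *Jak2* (0.229), and *Flt1* had *Insr* (0.327), *Map2k1* (0.366) and *Tnfaip3* (0.367).
For the genes with little range, the nearest were *Arid1b* (0.133), *Ikbkb* (0.198) and *Traf7* (0.203) for *Vegfc*, *Cdkn1b* (0.222), *Smad3* (0.234) and *Id2* (0.242) for *Pgf*, and *Akt2* (0.281), *Alas1* (0.298) and *Map3k14* (0.305) for *Angpt1*. *Pdgfrb* was left out because its mean in Shh-MBs is under 20.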

How the data were processed

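Expression of 770 genes was measured in 12 samples, 5 from *RBS* lesions, 4 from control eyes and 3 from Shh-MBs. The authors normalized the counts with nSolver and its Advanced Analysis module, and the deposited values are a linear normalized signal, with background subtracted and 1 factor per sample. The background setting and reference genes are not given in the sources used here. Depth per sample (335348 to 716959 counts above background) is the total signal divided by the step between neighbouring low values, and precision is limited for weak genes. All 12 columns of values matched a sample (0 did not).

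Log2(signal + 1) of all genes, without a filter, was compared between 2 groups at a time with limma 3.58.1 in R 4.3.3 (eBayes, two-sided, Benjamini-Hochberg over all 770 genes, threshold 0.05). Steps were tested on simulated data. The exact permutation test was run per gene, with smallest *p*-values of 0.00794 for 5 against 4, 0.0179 for 5 against 3 and 0.0286 for 3 against 4. Alternatives were a pseudocount of 5, a filter at a mean signal of 20, setting values under 20 to 20, median centring, quantile normalization, scaling to total signal after removal of the 3 top genes, all 12 samples in 1 fit, trend and robust settings, the methods' *t* test with 2 adjustments (Welch-corrected, with *p* from the *t* distribution and not from the permutations that the methods name, so it is not identical to the study's), a replicate block and leaving out each sample.

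Named with values were the 9 genes, the 6 other family genes, up to 4 genes per list and comparison with the largest differences among called genes without overlap, and the 3 genes nearest in profile. Some genes that this rule names are not reported here. *Bnip3*, *Ddit4* and *Epo*, further called genes of the hypoxia list, *Shc1*, the endothelial genes that were not called and the ratios were added after their values were seen. The genes and lists were chosen with earlier results of these data known. Promoter sequences are from RefSeq (GRCm38.p6). Plots used matplotlib 3.10.9 (Python 3.11.15).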

Additional observations from a re-analysis of the deposited data

Results flagged for a closer look

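Within groups of 4 or 5 samples, the gap between the most extreme sample and its neighbour was set against the range of the group for the 9 genes and the 6 other family genes, 30 groups in all. Chance alone marks about 1 in 20 groups, and 4 were marked here. *Vegfa* in *RBS* lesions was one, where RBS 4 with a signal of 1072 lay far above the next lesion at 559, a gap of 0.822 of the range. *Angpt1* in *RBS* lesions was another, with RBS 1 at 104 above 57.7 and a gap of 0.765 of the range. In control eyes, *Vegfb* had a low value in control 3, 648 against 762 to 777 in the others (0.878 of the range). *Pdgfd* had a high value in control 4, 79.2 against 27.7 to 28.7 (0.981 of the range).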

How the results depend on the processing

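The calls of *Pdgfa* and *Pdgfb* between *RBS* lesions and control eyes, and of *Vegfa*, *Pdgfa*, *Pdgfb*, *Pdgfra* and *Pdgfrb* between *RBS* lesions and Shh-MBs, held in every alternative except, for all but *Vegfa* and *Pdgfrb*, the methods' *t* test with step-down Bonferroni adjustment. Its *p*-values were read from the *t* distribution and not from permutations, so it is not the same test as that of the methods. As run here, it called 72 genes and 0 of the 9 for *RBS* lesions against control eyes, 80 genes and 2 of the 9 for *RBS* lesions against Shh-MBs, and 36 genes and 0 of the 9 for Shh-MBs against control eyes. With Benjamini-Hochberg adjustment the same test called 347, 380 and 217 genes and 2, 6 and 4 of the 9. Limma called 394, 468 and 316 genes, with 430, 507 and 377 at an unadjusted *p* under 0.05. Median centring reversed *Flt1* in *RBS* lesions against control eyes (-0.062), *Vegfc* in *RBS* lesions against Shh-MBs (-0.41), and *Vegfc* (0.081) and *Vegfb* (0.32) in Shh-MBs against control eyes. Quantile normalization reversed *Flt1* (-0.024) in the first comparison, *Vegfc* (-0.47) and *Flt1* (-0.13) in the second, and *Vegfc* (0.12), *Flt1* (0.13) and *Pdgfb* (0.11) in the last. With 1 sample left out, *RBS* lesions against control eyes ranged from -0.25 to 0.026 for *Pgf* (above 0 without RBS 1) and from -0.071 to 0.35 for *Flt1* (below 0 without RBS 4), and *Vegfb* against Shh-MBs ranged from -0.076 to 0.053 (above 0 without Shh-MB 3 or RBS 1). The cause was not tested.

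Replicate numbers are shared between groups. The residual correlations of same-numbered samples were -0.11, 0.16, 0.19 and -0.15 for *RBS* lesions and control eyes. They were between -0.02 and 0.08 for *RBS* lesions and Shh-MBs and between -0.08 and -0.02 for Shh-MBs and control eyes. Differently numbered samples were not compared, so these values cannot decide whether the numbers pair samples. With a replicate block, 301, 407 and 230 genes and 2, 6 and 5 of the 9 were called. *Vegfc* lost its call in both comparisons with Shh-MBs (0.43 and -0.51), *Pgf* lost it (0.49) and *Flt1* gained it (-1.13) in Shh-MBs against control eyes. Of the other family genes, *Figf* (0.68) and *Vegfb* (-0.40) lost it in *RBS* lesions against control eyes and *Vegfb* (-0.33) in Shh-MBs against control eyes. Depth limits *Pdgfrb*, *Figf* and *Pdgfd* in Shh-MBs, with 2.57 to 18.2 counts above background. *Flt1* in Shh-MBs was also weak, with 17.6 to 36.2 counts above background.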
